A study of Moesziomyces aphidis with 9 samples.

Results

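The genes described here are 41 of the 6952 genes measured in the yeast-like basidiomycete fungus Moesziomyces aphidis (formerly Pseudozyma aphidis). They lie in 11 runs of at least 3 neighbouring gene numbers in which every gene stood higher with soybean oil. Strain DSM70725 was grown for 114 h at 30 °C in a medium of yeast extract and glucose (40 g/l), labelled as not induced and as blastospores, the budding single-cell form. The second group had the same medium with soybean oil (70 g/l) added and is labelled as induced and as filaments. Glucose was therefore present in both groups, and the added oil, the cell form and the state of induction cannot be told apart. Each group had 3 libraries of 50 bp single reads from an unstranded kit. Of the 3 libraries outside the rule, 2 were stranded, 1 per medium with the number of replicate 1, and 1 was a paired-end library with 95 bp reads, labelled as soybean oil replicate 2.

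A gene was kept when it averaged 1 RPKM or more (read count divided by gene length and by library size) over the 6 unstranded 50 bp libraries and its mean was at least 2-fold higher with oil. Its lowest oil value also had to exceed its highest glucose value. The fold was taken as the log2 difference, log2 of (mean with oil + 1) minus log2 of (mean on glucose + 1), which had to reach 1. Of the 6486 genes at or over the filter, 426 were kept (6.57%), and the 41 run genes, all of which are over the filter by the rule, are 9.62% of those. The rest of the kept genes stood alone (327 genes) or in 29 pairs. Since the rule used the contrast between the media, the differences below describe the chosen genes and are not tests of them. Just inside the limit were log2 differences of 1.01 and 1.04, and just outside it was a direct neighbour of a run at 0.97, with groups that did not overlap.

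Mannosylerythritol lipids are glycolipid surfactants that fungi of this group secrete, built from a sugar head of mannose and erythritol and from fatty acids. In the related smut fungus Ustilago maydis the genes for their assembly lie side by side: the mannosyltransferase Emt1 makes the sugar head, the acyltransferases Mac1 and Mac2 attach fatty acids, the acetyltransferase Mat1 adds acetyl groups and the transporter Mmf1 belongs to the same cluster. Clusters of this kind are a common arrangement for fungal genes of secondary metabolism and of secreted proteins. The files give genes by number and pair no number with a name or product, so no run could be assigned to a pathway and no role is given to any gene. Gene numbers stand here for gene order, and whether consecutive numbers are adjacent on the genome was not examined. The runs are lettered A to K by length and then by their summed RPKM with oil, and the genes of a run are numbered in order, so A2 is the second gene of the longest run.

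The 6 libraries held 8108888 to 11100455 reads, and the paired-end library held 31573726. Reads per gene could be worked out for 6892 of the 6952 genes. Those genes held 97.2% to 98.1% of the reads of the 6 libraries. The oil libraries correlated at 0.982 to 0.989 on the log2 scale across genes, and glucose replicate 3 correlated with replicates 1 and 2 at 0.967 and 0.970, which correlated with each other at 0.994. The paired-end library stood apart from the libraries of its label. It correlated at 0.854 to 0.886 with the oil libraries and at 0.815 to 0.830 with the glucose libraries. Of the 6486 tested genes, 789 were at least 2-fold lower with oil and did not overlap. In 381 of these (48.3%) the paired-end value was at or above the lowest glucose value. The 50 bp oil values lay below it by the choice of these genes, so that share does not compare the libraries. By the correlations, the values of the paired-end library are given apart from the others, and what sets it apart was not tested. The sample titles number the replicates with the letters br, which the labels do not spell out, and no label names separate cultures.

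Of the reads in the 6892 genes with reads worked out, the 41 genes together made up 0.342% ± 0.0118 in the glucose libraries (SD, n = 3). In the oil libraries they made up 3.21% ± 0.189 (SD, n = 3). Run B alone took 0.180% ± 0.00938 and 1.99% ± 0.107 (SD, n = 3). The genes had a median log2 difference of 3.47, against 1.43 for the 385 kept genes outside runs and -0.07 for all tested genes. Log2 differences of at least 2 were held by 30 of the 41 (73.2%) and by 93 of the 385 (24.2%), and those of at least 4 by 14 (34.1%) and 18 (4.68%). Their median level on glucose was 5.23 RPKM against 22.8 for the other kept genes, and with oil it was 101 against 76.1. Run genes were thus lower on glucose and higher with oil than kept genes elsewhere, a description in which the rule had part. Gene length, which the rule did not use, had a median of 1984 bp in run genes, 1558 bp in the other kept genes and 1702 bp in all tested genes. In the limma fit over all genes 41 of 41 were called at least 2-fold higher, where 6.63% of all tested genes were called, and the standard errors of the log2 values ran from 0.12 to 0.34. The rule had chosen the genes on this contrast, so nothing is read from that count.

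**Figure D1:**
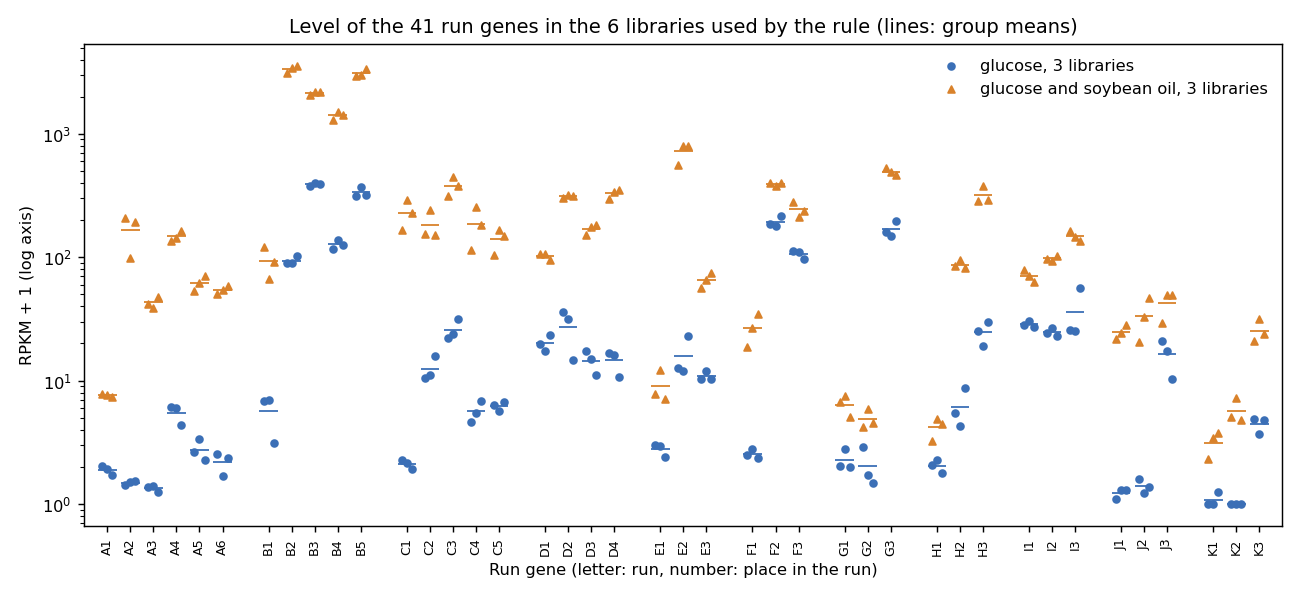
RPKM + 1 on a log axis for each of the 41 run genes, with 1 point per library for the 3 glucose libraries (circles) and the 3 soybean oil libraries (triangles) and a line at each group mean. The 4 most abundant genes with oil lie in run B, and the 7 genes with a mean under 1 RPKM on glucose lie in runs A, J and K.

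Run A, with 6 genes, had the highest ratio of summed levels between oil and glucose. The sums of its genes were 10.04, 9.77 and 7.47 RPKM in the 3 glucose libraries and 491, 397 and 533 in the 3 oil libraries, a ratio of means of 52.1. It held the gene with the highest log2 difference of all, A2 (PaG_03824). A2 stood at 0.413, 0.499 and 0.547 RPKM on glucose, from 10, 11 and 12 reads, and at 207, 96.9 and 190.2 with oil. All 3 glucose libraries were near zero, and oil replicate 2 stood well below the other oil libraries. Its log2 difference was 6.80 (limma estimate 6.73, SE 0.27). The smallest change of the run was in A1, with 1.01, 0.917 and 0.728 RPKM on glucose and 6.83, 6.66 and 6.37 with oil, a log2 difference of 2.01. A1 was also the weakest gene of the run with oil, and its 3 oil values lay close together. Means of the other 4 genes were between 0.336 and 4.47 RPKM on glucose and between 42.0 and 147 with oil, with log2 differences of 4.49 to 5.01. Genes A3 to A6 were each highest in oil replicate 3, whereas A1 and A2 were highest in replicate 1.

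Run B, with 5 genes, was the most abundant. It held 4 of the 79 genes that averaged 1000 RPKM or more with oil. The summed values were 900.4, 1001 and 939.6 RPKM on glucose and 9573, 10225 and 10612 with oil, a ratio of 10.7. B2 had the highest level and the largest change of the run, with 88.1, 89.1 and 102 RPKM on glucose and 3139.8, 3439.8 and 3553 with oil, a log2 difference of 5.17 (limma estimate 5.17, SE 0.13). B3 changed least: it was already at 376, 401 and 391 RPKM on glucose and stood at 2059.8, 2194 and 2180.0 with oil, a log2 difference of 2.46. In both genes the replicates of a medium lay close together and the groups were far apart. B4 and B5 followed the same pattern, with means of 126 ± 11.04 and 334 ± 29.3 RPKM on glucose and 1411 ± 104 and 3112 ± 226 with oil (SD, n = 3). B1 differed from its neighbours in level and in spread. Its values were 5.78, 5.98 and 2.13 RPKM on glucose and 121, 65.4 and 89.9 with oil, so it was the weakest gene of the run, had its lowest glucose value in replicate 3 and its lowest oil value in replicate 2. The other 4 genes had their lowest oil value in replicate 1.

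Run C also had 5 genes, with like levels in oil. Its sums were 40.7, 43.4 and 57.8 RPKM on glucose and 847, 1392 and 1082 with oil, a ratio of 23.4. The largest change was in C1 (PaG_05276), at 1.28, 1.14 and 0.925 RPKM on glucose and 165, 289 and 227 with oil, a log2 difference of 6.75 (limma estimate 6.72, SE 0.20). The most abundant gene was C3, at 20.9, 23.01 and 30.5 RPKM on glucose and 314, 442 and 375 with oil. C2 stood at 9.54, 10.1 and 14.8 and 152, 241 and 151 RPKM. C2 and C3 had the smallest log2 difference of the run, 3.87 and 3.87. Unlike the levels of runs A and B, which spread 24.9-fold and 36.7-fold between their weakest and strongest gene with oil, those of run C lay within 2.72-fold. Run C was not alone in this, as the spread was 3.24-fold in run D, 2.11-fold in run I and 1.74-fold in run J. Replicate 2 was the highest of the oil libraries in 5 of 5 genes, against 45.7% of all tested genes and 34.3% of the kept genes outside runs. On glucose, replicate 3 was the highest in 4 of the 5, with C1 as the exception, where it was the lowest.

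Run D had 4 genes, with sums of 85.6, 75.95 and 56 RPKM on glucose and 849, 938 and 939 with oil and a ratio of 12.5. D4 had both the highest level and the largest change, at 15.9, 15.03 and 9.74 RPKM on glucose and 294, 337 and 351 with oil, a log2 difference of 4.50. D1, the longest gene in any run at 7365 bp, changed least, from 18.7, 16.5 and 22.4 to 104, 105 and 93.7 RPKM, a log2 difference of 2.34. Along the run the log2 differences ran upward from D1 to D4, at 2.34, 3.51, 3.56 and 4.50. D2 to D4 had their lowest glucose value in replicate 3, and for D2 that value was 13.7 RPKM against 34.9 and 30.6. D1 had its highest glucose value in that replicate.

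The 7 runs of 3 genes differed widely in the ratio of their summed levels between oil and glucose. It was 29.8 in run E, 13.6 in run H, 8.86 in run K, 6.13 in run J, 3.65 in run I, 2.95 in run G and 2.20 in run F. Summed levels with oil were 792 ± 147 RPKM in run E, 659 ± 40.9 in run F, 502 ± 37.1 in run G and 407 ± 58.4 in run H, and 313 ± 18.1, 97.7 ± 27.04 and 31.3 ± 7.13 in runs I, J and K (SD, n = 3). On glucose the same sums were 26.6 ± 5.49, 299.5 ± 10.8, 170.3 ± 24.8, 29.9 ± 7.43, 85.9 ± 15.3, 15.9 ± 5.45 and 3.53 ± 0.746 RPKM in the order from E to K (SD, n = 3). Runs F and G thus had the smallest ratios although their levels with oil were below that of run E alone.

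Some of these runs joined strong and weak genes. Run E held E2, at 11.5, 10.95 and 22.2 RPKM on glucose and 561, 800.3 and 798 with oil, a log2 difference of 5.50. On one side of it E1 stood at 1.999, 1.94 and 1.41 and 6.74, 11.3 and 6.05 RPKM (1.70), and on the other E3 had means of 9.92 ± 0.975 and 64.3 ± 9.59 RPKM (SD, n = 3). E2 was thus the peak of the run, with 89.7 times the level of E1 in oil. Run H had the same feature at its end. H3 was the strongest gene, at 24.1, 17.97 and 28.9 RPKM on glucose and 286, 376 and 291 with oil, and H2 changed most, from 4.45, 3.30 and 7.72 to 83.2, 94.3 and 80.5 RPKM, a log2 difference of 3.82. H1 was weak in both media, at 1.06, 1.27 and 0.796 and 2.25, 3.84 and 3.48 RPKM, and entered the rule at a log2 difference of 1.04. Without glucose replicate 3, oil replicate 2 or oil replicate 3, 2 of the 3 genes of run H were kept and the run was lost.

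In runs F and G the abundant genes were already abundant on glucose and had small log2 differences. F2 stood at 186, 179 and 215 RPKM on glucose and 396, 377 and 399 with oil, the smallest log2 difference of any run gene (1.01). F3 was close to it, with means of 105 ± 8.42 and 243 ± 35.4 RPKM (SD, n = 3). The largest log2 difference of the run was in F1, at 1.49, 1.77 and 1.37 RPKM on glucose and 17.8, 25.9 and 33.6 with oil (3.40). Run F was lost by the rule when glucose replicate 1 or 2 or oil replicate 3 was left out. By the rule the groups of all 3 genes were apart, and F1 was far weaker than the others in both media. In run G the abundant gene was G3, at 158, 149 and 197 and 532, 488 and 459 RPKM (1.55). G2 was the least changed and weak, at 1.90, 0.724 and 0.485 RPKM on glucose and 3.22, 4.86 and 3.51 with oil (1.25), and G1 had means of 1.28 ± 0.445 and 5.39 ± 1.22 (SD, n = 3). The G2 values rested on 26, 9 and 6 reads on glucose and 45, 74 and 39 with oil.

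Run I held genes with like levels. I1 was at 27.1, 29.2 and 26.1 RPKM on glucose and 77.03, 69.3 and 62.4 with oil (1.31), and I3 at 24.7, 24.4 and 55.4 and 161, 145 and 134 (2.05). I2 was the lowest of them on glucose and between them with oil, with means of 23.6 ± 2.03 and 96.7 ± 4.80 RPKM (SD, n = 3). The glucose values of I3 were uneven, with replicate 3 above the other glucose libraries and, by the rule, below every oil library. Run J contained J2, at 0.607, 0.222 and 0.372 RPKM on glucose and 19.5, 31.9 and 45.9 with oil, a log2 difference of 4.58, and its neighbour J1 had means of 0.225 ± 0.118 and 23.8 ± 3.44 (SD, n = 3). J1 and J2 were near zero on glucose, from 2 to 9 reads per library. J3, by contrast, was expressed on glucose at 20.04, 16.5 and 9.34 RPKM and stood at 28.1, 48.4 and 47.9 with oil (1.38), where oil replicate 1 was the nearest to the glucose values.

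Run K was the weakest and its genes the shortest, at 263 to 495 bp. K3 stood at 3.85, 2.67 and 3.81 RPKM on glucose and 19.8, 30.6 and 22.9 with oil, a log2 difference of 2.52. K2 had 0 reads in all 3 glucose libraries, where a count of 0 allows up to 3 reads or up to 1.27 RPKM (counting error only). With oil it was at 4.10, 6.17 and 3.75 RPKM, from 11, 18 and 8 reads, at least 3.69-fold higher when set against 3 reads per library. K1 had the smallest log2 difference of the run (1.54), at 0, 0 and 0.246 RPKM on glucose from 0, 0 and 1 read and 1.31, 2.40 and 2.73 with oil from 6, 12 and 10 reads. Run K therefore rests on few reads in 2 of its 3 genes, and it was lost without oil replicate 2 or 3.

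Next to the runs most genes differed by less than 2-fold. Of the 22 positions next to a run, 20 had a gene in the files, and those genes had a median log2 difference of 0.20 (-2.59 to 0.97). By the rule none of them was kept. Log2 differences between -1 and 1 were found in 17 of the 20, where 81.1% of all tested genes had one, and 3 had a log2 difference of -1 or lower, where 12.3% of all tested genes did. The background shares are over genes at or over the filter, which a separate count found for 17 of the 20 neighbours. By the rule none of the 20 could be kept, so the sets are unlike and nothing is read from these counts. The gene below A1 stood at a mean of 25.9 ± 4.47 RPKM on glucose and 5.86 ± 1.13 with oil, and the gene above I3 at 14.2 ± 5.44 and 1.53 ± 0.555 (SD, n = 3). The gene above J3 was among the abundant ones, at 1248 ± 214 RPKM on glucose and 515 ± 66.3 with oil (SD, n = 3). Nearest to the limit was the gene below E1, at 47.5 ± 9.10 RPKM on glucose and 94.05 ± 13.5 with oil (SD, n = 3), a log2 difference of 0.97.

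Kept genes also lay past a gap beside some runs. The 22 positions 2 numbers from a run held 3 kept genes, and those 3 numbers away held 1. Of all tested genes 6.57% were kept. Nothing is read from these few genes. Beyond A6 lay a gene under the filter, at 0.166 ± 0.171 RPKM on glucose and 0.901 ± 0.0596 with oil, and past it 2 further kept genes with log2 differences of 2.98 and 3.18. A kept gene with a log2 difference of 3.11 lay 2 numbers below F1, past a gene with no reads on glucose and a mean of 0.834 ± 0.341 RPKM with oil. Past G3 and 1 gene at 0.56, a kept gene had a log2 difference of 1.16. From the last gene of run K to the first of run H were 4 numbers, and from run E to run C 7, with no kept gene between them in either case. Runs I and G were 23 numbers apart and runs H and D 25. Run F was the 1 run among the 941 genes of the separate number series above 10000, and the other 10 runs lay in the main series of 6011 genes.

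**Figure D2:**
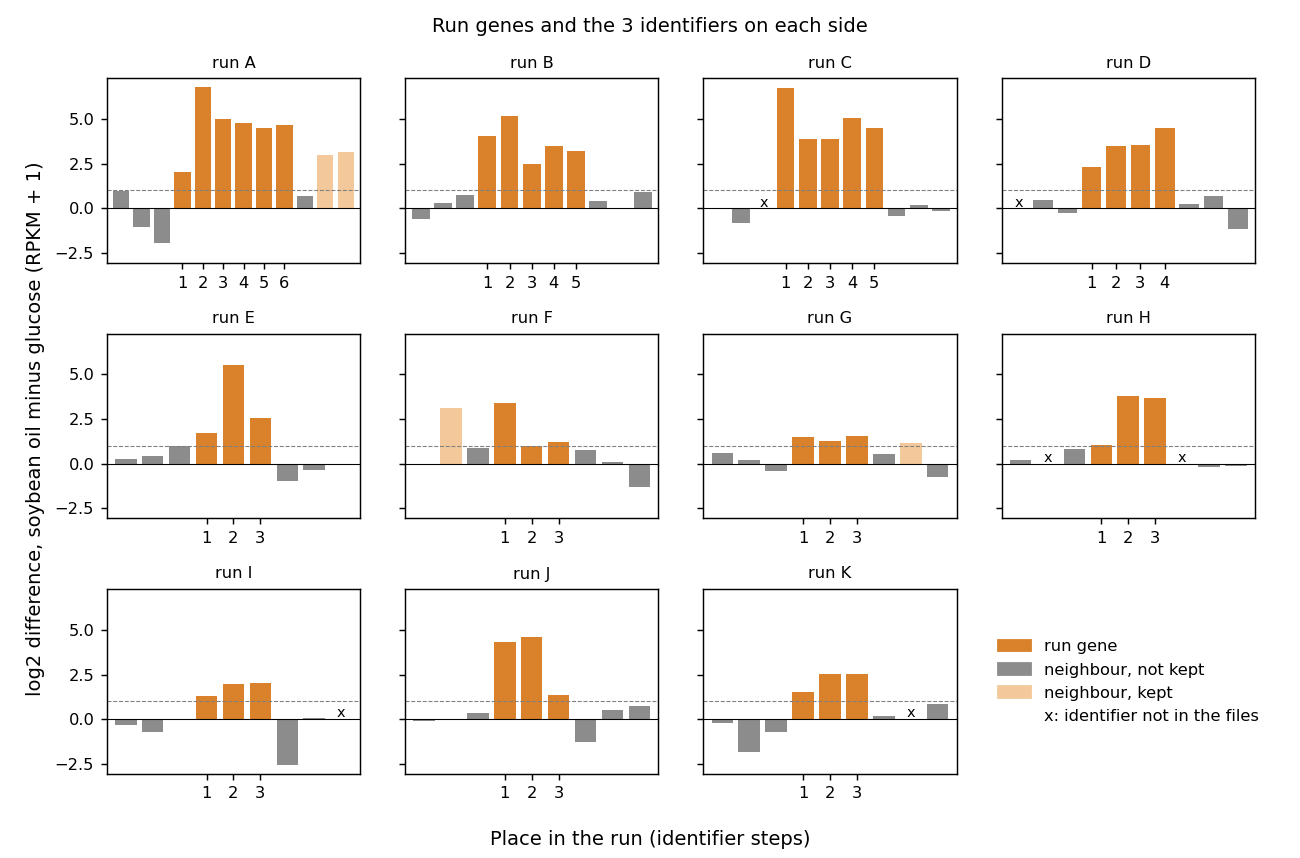
Log2 difference between soybean oil and glucose for the genes of each run (orange) and for the 3 gene numbers on each side (grey, or pale where the gene was kept), with a dashed line at the limit of 1. By the rule the next gene is never kept, 2 edges (below run C and above run H) have no gene with the next number in the files, and pale bars past a gap are seen beside runs A, F and G.

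The stranded libraries gave the same genes in another preparation, with 1 library per medium, so their differences have no replicate check. They carry the number of replicate 1, whose unstranded libraries took part in the choice. A log2 difference of at least 1 was found in 33 of the 41 run genes, where 4.66% of all tested genes and 50.1% of the other kept genes reached it. The difference was above 0 in 40 of 41, against 30.4% of all tested genes and 95.3% of the other kept genes. The median was 2.86 in run genes and -0.35 in all tested genes. In the unstranded libraries that chose the genes, the median was 3.47 in run genes and 1.43 in the other kept genes. The limit of 1 thus lay nearer to the other kept genes, and the shares reaching it are not like for like. A2 stood at 0.980 and 297 RPKM in the stranded glucose and oil libraries, C1 at 0.390 and 105 and B2 at 84.02 and 2121. These 3 genes kept log2 differences of 7.23, 6.25 and 4.64. Every gene of runs A, B, C, D and E reached 1.

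The stranded differences departed from the unstranded ones unevenly. In the pair of replicate 1 the stranded log2 difference was the lower in 30 of 41 genes, with a median of stranded minus unstranded of -0.30, against -0.16 over all tested genes. K2 was the exception in direction, at 0.160 and 0 RPKM on glucose and with oil in the stranded libraries, against 0 and 4.10 in the unstranded libraries of that replicate. Reads on K2 in the unstranded libraries cannot be assigned to a strand, so a transcript on the other strand cannot be told apart from one of K2. K1 stood at 0.0900 and 0.400 RPKM (0.36), and K3 at 3.05 and 12.2 with a log2 difference of 1.70. The other genes under 1 were F2 (0.59), G1 (0.93), G2 (0.96), H1 (0.25), I1 (0.75) and J3 (0.76). D1 dropped from a log2 difference of 2.42 in the unstranded pair to 1.38, at 35.9 and 95.02 RPKM on glucose and with oil. The stranded values as deposited summed to 899788 RPKM on glucose and 1008089 with oil. In the unstranded pair of replicate 1 the sums were 596287 and 586987, so levels in the stranded and unstranded libraries are not on 1 scale.

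**Figure D3:**
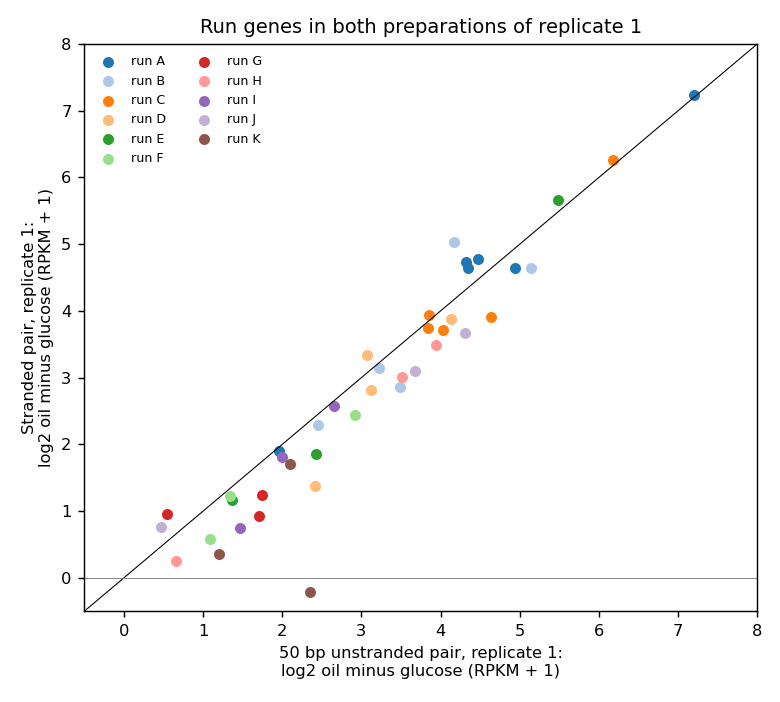
Log2 difference between oil and glucose in the stranded pair (vertical) against the unstranded pair of replicate 1 (horizontal), on the RPKM + 1 scale, 1 point per run gene and 1 colour per run; the line marks equal values. Points of runs A to E lie at 1.17 or higher on the vertical axis, and 1 gene of run K falls below 0 on the vertical axis.

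The paired-end library took different positions within most runs. Labelled as soybean oil replicate 2, it was at or below the highest glucose value in 11 of the 41 genes, between the groups in 20, within the oil range in 2 and above it in 8. For the 385 kept genes outside runs these shares were 46 (11.9%), 159 (41.3%), 59 (15.3%) and 121 (31.4%), and over all tested genes they were 43.2%, 6.28%, 6.78% and 43.7%. Set against the 50 bp library of the same number, 21 of the 41 run genes were at least 2-fold lower, where 4.41% of all tested genes and 22.6% of the other kept genes were. At least 2-fold higher were 4 of the 41, where 15.7% of all tested genes and 31 of the 385 other kept genes were. The 50 bp library had taken part in the choice of genes by their oil values, and the paired-end library had not. The sets also had unlike differences between the media, with a median log2 difference of 3.47 in run genes and 1.43 in the other kept genes. Their shares are therefore not like for like. The median log2 difference between the 2 libraries was -1.04 in run genes, -0.26 in the other kept genes and 0.28 in all tested genes.

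Run C was the one run in which every gene exceeded the oil range, a position held by 43.7% of all tested genes and 31.4% of the other kept genes. The paired-end values were 856 RPKM for C1, 374 for C2, 616 for C3, 699 for C4 and 558 for C5, and their sum was 3103 against 1107 ± 273 in the 50 bp oil libraries (SD, n = 3). All 5 genes also had their highest 50 bp oil value in replicate 2, the number that the paired-end library carries. So did all 3 genes of run H, whose paired-end values lay between the groups in 2 genes and at the glucose level in 1. Whether the replicate number bears on the position of run C was not tested. Run B stayed high but mostly under the oil range. B5 was at 2557 RPKM, B2 at 1360.0, B3 at 1350.3 and B4 at 651, all between the groups, and B1 at 76.5 was within the oil range. The summed level of run B was 5994 RPKM, against 947 ± 50.8 on glucose and 10136 ± 525 with oil (SD, n = 3).

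In the other runs its position differed from gene to gene. In run A the paired-end value of A1 was 9.11 RPKM, above its 3 oil values, and A2 at 66.1 was below them. A4 and A5 lay between the groups at 22.8 and 6.91 RPKM. A3, from 8 reads, was at 0.0826 RPKM and A6 at 0.738, both below the highest glucose value although their 50 bp oil values were 38.1 or more. Genes next to each other in number therefore ranged from above the oil libraries to the glucose level. Run D had D1 at 75 RPKM, D2 at 35.4, D3 at 11.9 and D4 at 44.6, where D3 was within its glucose values and the others between the groups.

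In run I the paired-end values were 36.3, 23.6 and 36.1 RPKM, against glucose means of 27.5, 23.6 and 34.8. I2 and I3 thus lay within their glucose values and I1 just above them. E2 and E3 stayed high at 501 and 62.4 RPKM, while E1 at 0.941 was below its glucose values. J1 was at 10.8 RPKM and between the groups, but J2, from 16 reads, was at 0.340 and J3 at 16.7, both at the glucose level. G1 and G2 exceeded the oil range at 15.2 and 7.60 RPKM, and G3 at 263 did not reach it. K3 was below its glucose values at 0.576 RPKM, from 9 reads, and K1 and K2 rested on 8 and 3 reads. H2 and H3 were between the groups at 29.1 and 233 RPKM and H1 at the glucose level at 0.864. F2 and F3 were also between, at 236 and 142 RPKM, and F1 at 1.29 was below its glucose values. When the paired-end library took the place of the 50 bp library of replicate 2, the rule gave 19 genes in 5 runs, with 13 of the 41 among them: all of runs B, C and G.

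**Figure D4:**
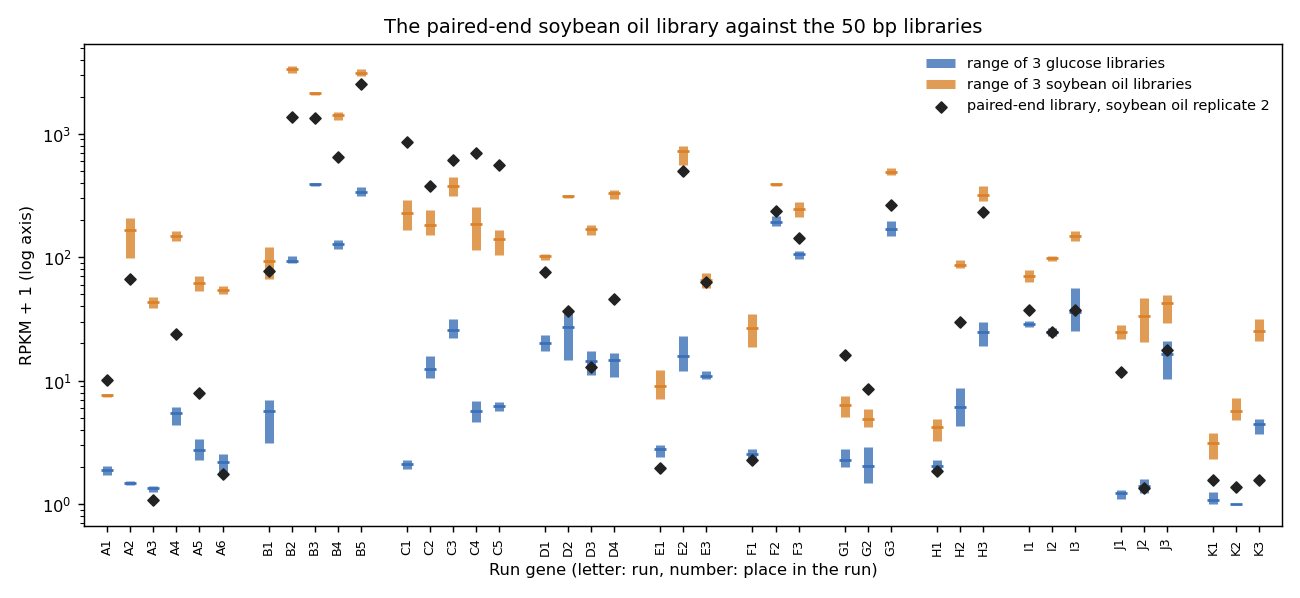
RPKM + 1 on a log axis for the 41 run genes, with bars for the range of the 3 glucose and of the 3 soybean oil libraries of 50 bp, a tick at each mean, and a diamond for the paired-end library. Diamonds lie above the oil bars for all 5 genes of run C, and at or below the top of the glucose bars for 11 genes of runs A, D to F and H to K.

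The coefficient of variation over the 3 oil libraries ran from 2.97% to 40.8%, with a median of 14.6% in run genes and 11.8% in all tested genes. It was over 30% in 7 run genes, among them K1, from 6 to 12 reads per oil library, and A2, from 2617 to 5129. The share of all tested genes over 30% was not counted, so nothing is read from the 7. Replicate 2 was the highest oil library in 3 of 3 genes of run H as in 5 of 5 of run C, where it was the highest in 45.7% of all tested genes. Replicate 1 was the lowest in 3 of 3 genes of run J, and in 53.2% of all tested genes. In all, the highest oil value was in replicate 1 for 7 genes, in replicate 2 for 19 and in replicate 3 for 15 (17.1%, 46.3% and 36.6%, against 23.6%, 45.7% and 30.7% of all tested genes). On glucose replicate 3 was the highest for 15 run genes (36.6%, against 28.5% of all tested genes). Genes of a run share their libraries, so these counts are descriptions over 3 libraries per medium.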

How the data were processed

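The deposited gene files hold RPKM values that the authors made (1 value per gene and library). Alignment used TopHat 1.4.1, per the submitters' processing notes. No source used here names the counting tool, the annotation or the genome build. Outside the stranded libraries the deposited values are ratios of whole numbers, from which reads, gene lengths and library totals were worked out for 6892 of 6952 genes within 0.0001 read, all run genes included. Stranded values have no entry under 1, and 45 of 52 genes without reads elsewhere stand at exactly 1, so 1 was subtracted from each. Junction lists were not used, since the files do not link positions to genes.

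The rule was applied to the RPKM values, and limma 3.58.1 (R 4.3.3) was fitted on log2(RPKM + 1) with an intensity trend over all genes that averaged 1 RPKM or more, with Benjamini-Hochberg adjustment and a limit of 0.05. It was checked on simulated data. RPKM values do not allow for shifts in RNA composition: the median log2 fold change was -0.06. The members, lists and comparisons were chosen with earlier results of these data known. In each run the genes with the highest oil mean and with the largest and smallest log2 difference are given by library. Gene lists by product name could not be applied, and identifiers are printed for 2 genes. Calls measure the spread among these libraries, which may be technical.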

Additional observations from a re-analysis of the deposited data

How the results depend on the processing

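The 41 run genes kept their direction in every alternative in which they were tested, and 18 were no longer called by limma when the paired-end library replaced the 50 bp library of soybean oil replicate 2, where 22 of the 40 tested were called at least 2-fold higher (K1 was under the filter), 19 genes lay in runs and 5 runs were left. The 18 had log2 fold changes of 0.57 to 3.28, lower than with the 50 bp library in 16 and higher in 2 (G1 and G2). Over all tested genes 307 were called at least 2-fold higher with the paired-end library and 430 with the 50 bp library. Under the other alternatives every run gene that passed the filter had a limma adjusted p under 0.05. At least 2-fold higher were 34 to 41 run genes, and 326 to 516 of all tested genes. The rule had chosen the run genes on this contrast, so their calls describe them and are not tests. With a pseudocount of 5 RPKM the rule gave 25 genes in 6 runs, and with a mean of at least 10 RPKM it gave 7 runs (7 run genes were then not tested). A log2 difference of at least 2 kept 123 genes, 20 of them in 4 runs, and runs of at least 4 genes held 20 genes in 4 runs. Leaving out 1 library gave 32 to 48 genes in 8 to 13 runs, 412 to 467 kept genes and 410 to 464 called at least 2-fold higher (426 and 430 with all libraries). Runs A to E, G, I and J held with any of the 6 libraries left out. Run F was lost without glucose replicate 1 or 2 or soybean oil replicate 3, run H without glucose replicate 3 or soybean oil replicate 2 or 3, and run K without soybean oil replicate 2 or 3. Allowing 1 gene that was not kept inside a run gave 57 genes in 15 runs. Median-ratio scaling gave 45 genes in 12 runs and quantile normalization 42 in 11, with 38 of the 41 and without run F.

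Deviations of same-numbered libraries from the means of their media correlated at -0.19, 0.23 and 0.05 for replicates 1, 2 and 3. The correlations were weak and differed in sign, so the numbers were not taken as pairs. With the replicate number as a block, the rule kept 431 genes, 41 in 11 runs, and limma called 430 genes at least 2-fold higher, with all 41 run genes among them. The planned edgeR and DESeq2 fits on recovered reads were not run.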
